A study of Rattus norvegicus with 18 samples.

Results

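The question addressed was whether a grandfather's diet leaves a trace in the muscle of granddaughters that never ate the high-fat diet themselves. Of the 18 arrays of the study, the 9 of chow-fed females were compared: 4 from granddaughters of males fed a high-fat diet (high-fat/chow) and 5 from granddaughters of males fed chow (chow/chow). They were F2 females of the Sprague-Dawley strain that ate control chow for 12 weeks as adults, and each array carried RNA of the extensor digitorum longus (EDL) muscle under a separate animal number. The founders (F0) were the males whose diet differed. The other 9 females spent the same 12 weeks on a high-fat diet, with 42/45% of its energy as fat, and form the chow/high-fat (5) and high-fat/high-fat (4) groups. Those served for the estimate of the spread and for the test of whether the grandpaternal difference depended on the female's own diet. The labels do not give how many founders or litters stand behind each group, so animals counted as independent may be relatives, and p-values would then be too small.

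Nutritional history can pass through the male germ line in rodents, where small RNAs, DNA methylation and chromatin of sperm are the carriers usually considered. The EDL is a fast hindlimb muscle, made mostly of fast fibres with a minority of slow ones. Fast and slow fibres use separate genes for myosin, troponin and the calcium pump, so the transcripts of a whole muscle report its fibre makeup as well as the state of its fibres.

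Levels are given as log2(intensity + 16) after quantile normalization, in which 1 unit is a doubling for all but dim probe sets. A difference is always high-fat/chow minus chow/chow. The precision is limited by the number of arrays. The deposited median intensity ran from 66.29 to 70.52 on the chow/chow arrays and from 60.21 to 70.66 on the high-fat/chow arrays, of which replicates 1 and 2 were the dimmest. Of 15 defining genes of skeletal muscle, 10 were measured and differed by a median of 0.033, for example creatine kinase Ckm (-0.010, SE 0.054) and skeletal actin Acta1 (0.040, SE 0.053). The others lay between Pgam2 (-0.0057) and Pvalb (0.13), with Tnni2 at 0.046, Cacng1 at 0.041, Actn3 at 0.034, Myod1 at 0.031, Tnnt3 at 0.0055 and Casq1 at 0.0045. The myosins Myh4 and Myh1, Mylpf, Atp2a1 and Ckmt2 are not analysed here.

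The grandpaternal diet was followed by few differences in chow-fed granddaughters. Slc17a5, the sialin gene, whose protein carries free sialic acid out of lysosomes, fell by 0.68 on the log2 scale and was the 1 gene of 12642 (0.00791%) past the threshold. Of all genes, 6257 were higher and 6385 lower, the median difference was -0.0017, and 62.96% lay within 0.1 log2 of 0. Beyond 0.5 log2 lay 23 higher and 33 lower genes, against a median standard error of 0.090. An unadjusted p under 0.05 was reached by 1106 genes (8.75%), 549 higher (4.34%) and 557 lower (4.41%), where 632.1 would be reached with no difference at all. The 4 high-fat/chow animals did not overlap with the 5 chow/chow animals in 415 genes (3.28%), 194 of them higher (1.53%) and 221 lower (1.75%).

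**Figure D1:**
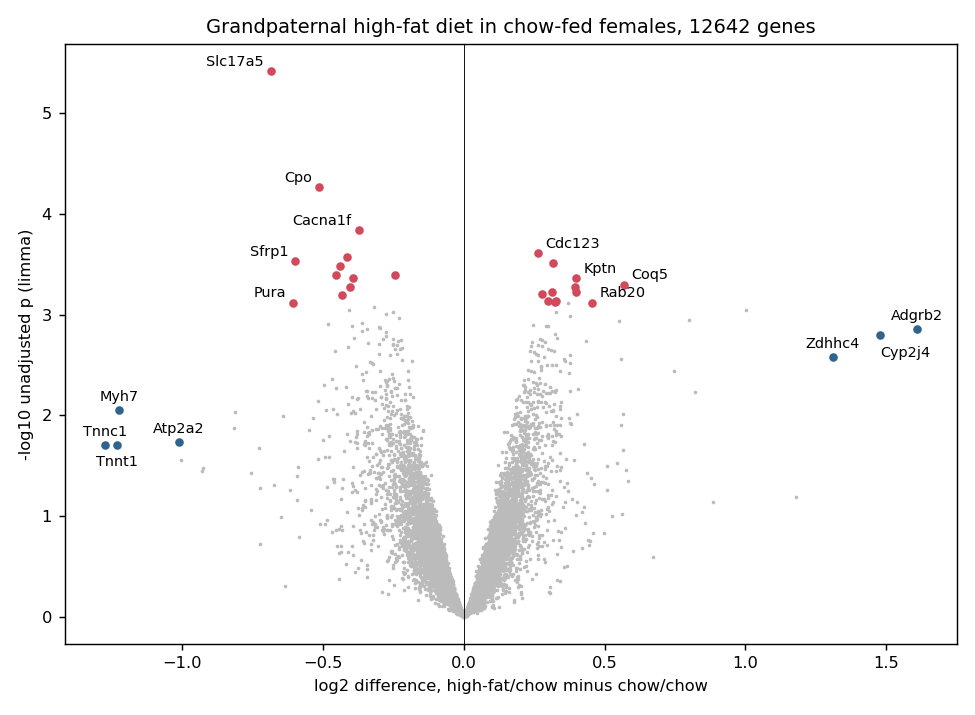
Each point is 1 of 12642 genes, by its log2 difference between high-fat/chow and chow/chow (horizontal axis) and the -log10 of its unadjusted limma p (vertical axis). Red points are the 12 higher and 12 lower genes of smallest p, and blue points are 4 slow-fibre genes and the 3 largest differences upward. Slc17a5 stands alone at the top, and Tnnc1, Tnnt1, Myh7 and Atp2a2 lie farthest to the left.

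Sialin is the exporter of sialic acid, and of other acidic sugars, from the lysosome, where these sugars are freed from glycoproteins and gangliosides. The level of Slc17a5 (probe set 10918848) was 8.18, 8.05, 8.02, 7.92 and 8.06 in the chow/chow animals and 7.62, 7.16, 7.31 and 7.35 in the high-fat/chow animals. All 4 high-fat/chow animals thus lay below all 5 chow/chow animals, and replicate 1 was the nearest to them. The means were 8.04 ± 0.093 (SD, n = 5) and 7.36 ± 0.19 (SD, n = 4), a fold of 0.62 (95% confidence interval of the log2 difference -0.91 to -0.46, SE 0.107, limma adjusted p = 0.0484). The arrays carry a well column in their titles, and within columns 5, 7 and 9 the difference was -0.81, -0.40 and -0.71, where columns 7 and 9 hold 1 animal of each group. With the well column as a block in the fit the call was lost (limma adjusted p = 0.0516). Some full wells occur more than once in the titles, and the labels do not say whether there was more than 1 plate. Each repeat pairs an array from the line of chow-fed grandfathers with an array from the line of high-fat-fed grandfathers. If there were several plates, their effect may not be separable from the grandfather's diet. The column therefore cannot be taken to stand for a plate or a run, and an effect of these was not tested.

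In females on the high-fat diet the Slc17a5 levels were 8.03, 7.94, 7.93, 7.53 and 7.66 with chow-fed grandfathers and 7.57, 7.80, 7.70 and 7.95 with high-fat-fed ones. These groups overlapped fully, and the difference was -0.064 (SE 0.107). The difference between the own diets was 0.62 (SE 0.15) and did not pass over all genes (limma adjusted p = 0.546). The call lies near its threshold. It was lost without any of the chow/chow replicates 1 to 5 (adjusted p = 0.236, 0.177, 0.149, 0.0760 and 0.181) and without high-fat/chow replicates 2, 3 or 4 (0.319, 0.326 and 0.269). It was also lost without chow/high-fat replicates 2, 3 or 5 (0.0666, 0.0707 and 0.0552) or high-fat/high-fat replicates 2 or 3 (0.0861 and 0.0835), while the difference stayed between -0.55 and -0.77 over 32 alternative settings.

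The promoter of this gene is shown because it belongs to the gene that passed, as the 120 bases before the annotated start in RefSeq assembly GRCr8 (chr8:88309665-88309784, minus strand, written along the gene).
Slc17a5: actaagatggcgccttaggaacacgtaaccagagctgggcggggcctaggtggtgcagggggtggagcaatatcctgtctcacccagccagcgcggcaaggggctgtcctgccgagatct
It is 62.5% G and C, above the median of 54.2% over 27457 promoter windows of this length, and holds 6 CG dinucleotides against a median of 3. No TATA box (TATAAA, both strands) was found in it.

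The other genes of sialic acid and lysosomal glycan handling did not pass. Of 23 measured members, 11 were higher and 12 lower, with a median of -0.011 beside -0.0017 for all genes, and 1 was called, Slc17a5 itself. Nans, the synthase of sialic acid phosphate, differed by 0.24 (SE 0.10), and Nanp, the phosphatase of the next step, by 0.18 (SE 0.088). Npc2, a lysosomal cholesterol carrier, differed by 0.19 (SE 0.094).

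After Slc17a5 the next gene had an adjusted p of 0.344 and 67 genes shared 0.376, so the further genes are given as values. They are the 12 of smallest p in each direction. Among the lower genes 12 of 12 did not overlap between the groups, among the higher ones 11 of 12, the exception being Rab20. These counts follow from picking genes by p. The standard errors of the 24 ran from 0.057 to 0.15.

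Cpo, a carboxypeptidase that removes acidic residues from the ends of peptides, was at 6.74, 6.44, 6.59, 6.32 and 6.60 in chow/chow and at 6.14, 5.90, 5.94 and 6.12 in high-fat/chow animals. The groups were apart by less than the range within either, and the difference was -0.51 (SE 0.0996, limma adjusted p = 0.344). Within well columns 5, 7 and 9 it was -0.58, -0.45 and -0.49. Cacna1f, a pore subunit of an L-type calcium channel best known from the retina, differed by -0.37, and Ilvbl, a relative of acetolactate synthases, by -0.41.

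Vegfb, a member of the vascular endothelial growth factor family that is abundant in muscle, was at 11.11, 10.79, 11.02, 10.96 and 10.94 in chow/chow animals and at 10.62, 10.61, 10.52 and 10.35 in high-fat/chow animals. Every high-fat/chow animal was below every chow/chow animal, by a mean of -0.44 (SE 0.10, limma adjusted p = 0.376). In high-fat-fed females it differed by 0.072. Its well-column values were -0.39, -0.41 and -0.59.

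A pair of Wnt signalling genes was among the lower 12. Sfrp1, a secreted inhibitor that binds Wnt proteins, had levels of 6.95, 7.07, 6.57, 6.94 and 6.79 against 6.34, 6.20, 6.43 and 6.09 (difference -0.60, SE 0.14). Lrp5, a Wnt co-receptor, differed by -0.39 (SE 0.092). For both, all high-fat/chow animals lay below all chow/chow animals. In high-fat-fed females the differences were 0.11 for Sfrp1 and -0.21 for Lrp5.

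Pura, a protein that binds purine-rich DNA and RNA, was at 11.05, 10.92, 11.05, 11.02 and 10.86 in chow/chow animals and at 10.48, 10.32, 10.25 and 10.43 in high-fat/chow animals (difference -0.61, SE 0.15). In high-fat-fed females of high-fat-fed grandfathers the levels were 10.49, 10.55, 11.31 and 11.33, in a low and a high pair. This spread enters the common error: in a fit of the 9 chow-fed arrays alone Pura passed (limma adjusted p = 0.0304) beside Slc17a5 (adjusted p = 0.0445). The remaining lower genes were Znfx1, a helicase of antiviral defence (-0.24), Pcdhb2, a protocadherin of a cluster of like genes that probes may not separate (-0.45), Prom2, a membrane protein of the prominin family (-0.40), and C13h1orf21 (-0.43). Pcdhb2 was dim, at means of 5.70 in chow/chow and 5.25 in high-fat/chow animals.

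Among the higher genes, Kptn had the same direction and nearly the same size at both own diets. Kaptin, its protein, is a subunit of KICSTOR, which holds a brake on mTORC1 signalling at the lysosome. Its levels were 7.46, 7.66, 7.52, 7.71 and 7.47 in chow/chow and 7.76, 7.97, 8.26 and 7.87 in high-fat/chow animals, a difference of 0.40 (SE 0.094, limma adjusted p = 0.376). In high-fat-fed females they were 7.53, 7.47, 7.55, 7.56 and 7.5 against 7.87, 8.20, 7.80 and 8.02, a difference of 0.45 (SE 0.094, adjusted p = 0.0990). In both pairs of groups the granddaughters of high-fat-fed males lay wholly above the others, and neither difference passed.

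Cdc123, a chaperone that assembles the translation initiation factor eIF2, was at 9.06, 9.15, 9.16, 9.04 and 9.10 in chow/chow and at 9.26, 9.40, 9.43 and 9.37 in high-fat/chow animals (0.26, SE 0.059). The spread within each group was narrow and the groups were apart. In high-fat-fed females the difference was 0.22. Tamm41, a mitochondrial enzyme at the start of cardiolipin synthesis, was at 6.85, 6.91, 6.99, 7.12 and 7.03 against 7.14, 7.29, 7.35 and 7.40 (0.32, SE 0.072). The highest chow/chow and the lowest high-fat/chow animal of Tamm41 were close to each other.

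Coq5, a methyltransferase of ubiquinone synthesis, had the largest difference of the 12 higher genes. It was at 8.38, 8.08, 8.08, 8.50 and 8.46 in chow/chow and at 8.63, 9.15, 9.11 and 8.58 in high-fat/chow animals (0.57, SE 0.14, limma adjusted p = 0.376). Replicates 2 and 3 carried most of it, and within well columns 5, 7 and 9 it was 0.81, 0.54 and 0.12. Plpp7, a nuclear envelope protein of muscle, differed by 0.40 in chow-fed and 0.37 in high-fat-fed females, without overlap at either own diet.

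The remaining higher genes have separate roles. They were Tbcb, a cofactor of tubulin folding (0.40), Ube2e2, a ubiquitin-conjugating enzyme (0.31, with 0.15 for its other probe set), Rpp40, a subunit of ribonuclease P (0.33), and Commd10, a protein of endosomal sorting (0.30). Prrg3, a membrane protein with a vitamin K-dependent domain (0.28), Rab20, a small GTPase (0.46), and Olr1143, an olfactory receptor gene of a large family (0.33), complete the 12. Of the 24 genes, 18 had the same sign in high-fat-fed females, 11 of the higher and 7 of the lower ones. Over all genes the differences in chow-fed and high-fat-fed females had a Pearson correlation of 0.22.

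**Figure D2:**
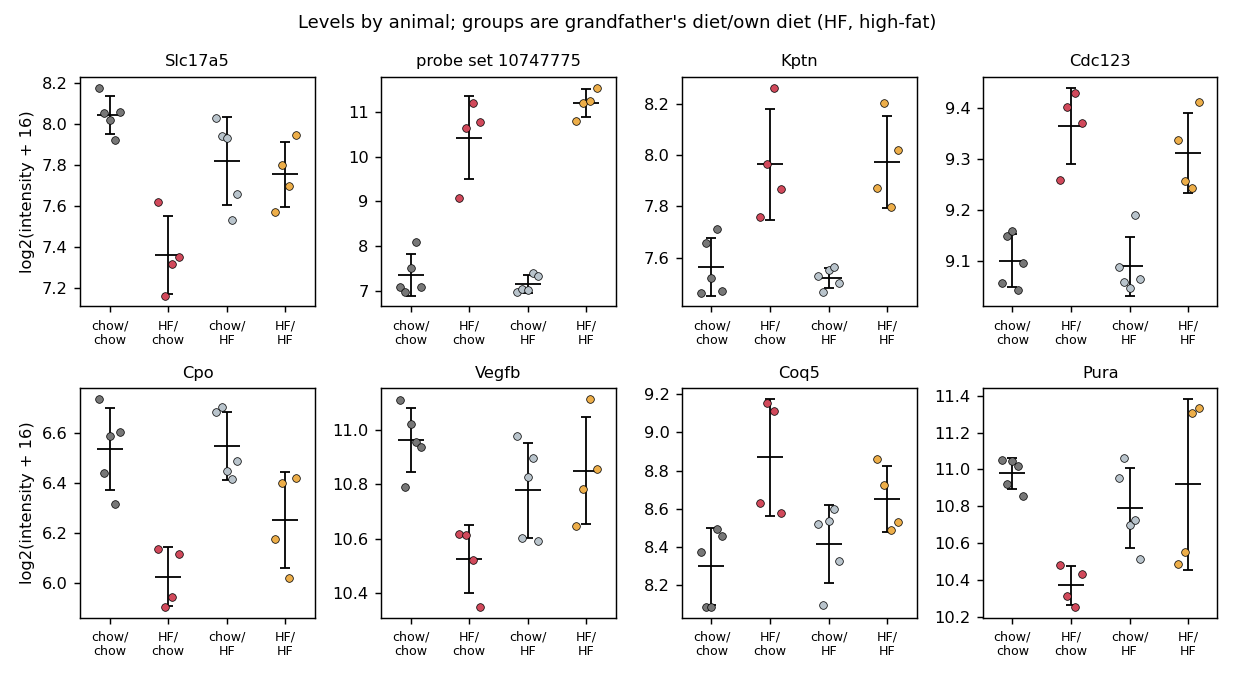
Level of 7 genes and of probe set 10747775 in each animal, as log2(intensity + 16), by group (grandfather's diet/own diet, HF for high-fat). Points are animals and bars are the mean and SD. For Slc17a5, Vegfb and Pura the second group stands below the first while the last 2 groups overlap, and for Kptn, Cdc123 and probe set 10747775 both groups with high-fat-fed grandfathers stand above both others.

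The high-fat-fed females share no animal with the chow-fed ones, so both own diets give separate values for the grandpaternal difference, though the females may share relatives. In the high-fat-fed females limma called 0 genes. An unadjusted p under 0.05 was reached by 1682, where 632.1 would be reached with no difference at all and 1106 were in chow-fed females. In 596 (4.71%) the groups did not overlap. Without overlap in the same direction at both own diets were 17 genes (0.134%). Of these 12 were higher: Cdc123, Tamm41, Kptn, Plpp7, Atrip, Unc119b, Niban1, Ddo, Garin5a, Glo1, Fem1a and Krt13. The 5 lower ones were Jrkl, Scaf11, Kpna4, Atg13 and Zfp609. Apart from the first 4, they were chosen after their values were seen. The like direction of the 17 at both own diets follows from this way of picking, and none of them was called at either. In chow-fed females Krt13 and Zfp609 had unadjusted limma p of 0.243 and 0.0687.

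Several of the 17 have known roles. Atrip, the partner of the DNA damage kinase ATR, differed by 0.24 at both own diets. Unc119b, which carries lipid-modified proteins to cilia, differed by 0.30 at both. Glo1, which detoxifies the glycolytic by-product methylglyoxal, differed by 0.15 in chow-fed and 0.13 in high-fat-fed females. Atg13, a subunit of the kinase complex that starts autophagy, differed by -0.15 at both, and Kpna4, an importin of nuclear transport, by -0.15 and -0.13.

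Whether the grandpaternal difference depended on the female's own diet was tested as an interaction. Of 12642 genes limma called 0 (0%), the smallest adjusted p being 0.546. An unadjusted p under 0.05 was reached by 863, where 632.1 would be reached with no difference at all. The 5 genes of smallest p were Slc13a1, a sulfate transporter (interaction -0.41), the peptidase Dpp3 (0.66), Sntb1, a syntrophin of the dystrophin complex (1.02), the lipid kinase Dgkz (-0.66) and C8h3orf62 (-0.50). In chow-fed females their grandpaternal differences were 0.020, -0.14, -0.27, 0.29 and 0.21 in that order. Other probe sets of Dgkz differed by 0.33 and -0.34 there.

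**Figure D3:**
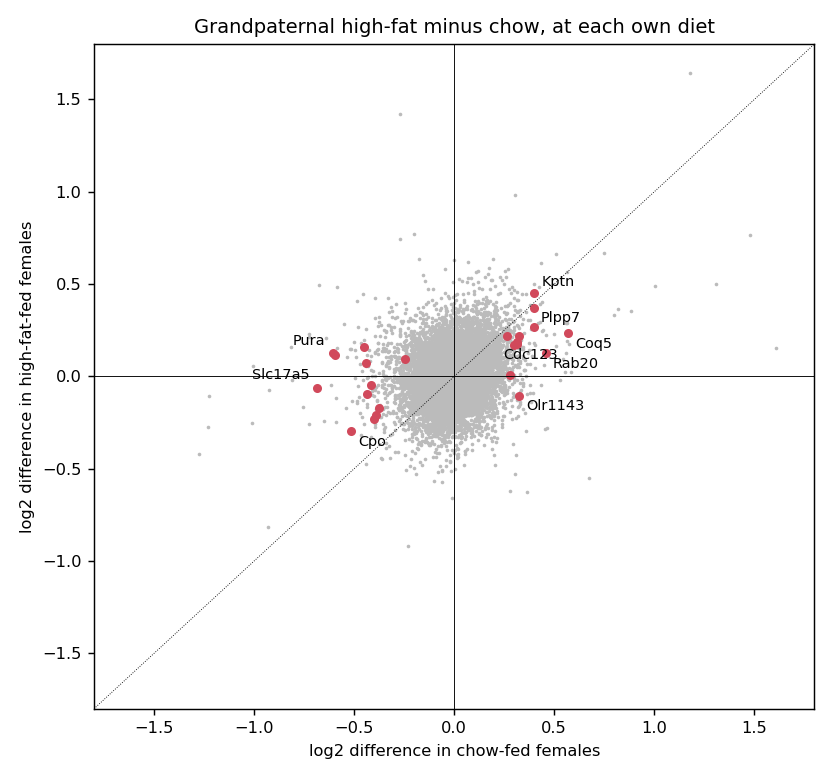
Log2 difference between granddaughters of high-fat-fed and chow-fed males in chow-fed females (horizontal axis) and in high-fat-fed females (vertical axis), for 12642 genes. The 24 genes of smallest p in chow-fed females are red, and the dotted line marks equal differences; 1 gene lies outside the axes. Kptn and Plpp7 lie near the line, and Slc17a5, Pura and Olr1143 near or across the horizontal axis.

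A transcript cluster without a gene name in the probe table showed a larger difference than any named gene. It was found when 1840 probe sets without exactly 1 symbol were fitted together with the genes, a step added after values were seen. Of the 14482 tested, limma called 2 (0.0138%), probe set 10747775 and Slc17a5 (adjusted p = 0.0302). The level of probe set 10747775 was 7.09, 6.97, 7.51, 8.10 and 7.10 in chow/chow and 9.08, 10.63, 11.20 and 10.77 in high-fat/chow animals. All high-fat/chow animals lay above all chow/chow animals, replicate 1 least so. The difference was 3.07 (SE 0.31, 95% confidence interval 2.42 to 3.71, limma adjusted p = 8.03e-05), an 8.37-fold higher level.

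The same probe set was higher in the high-fat-fed females too. Their levels were 6.99, 7.05, 7.03, 7.41 and 7.34 with chow-fed and 10.79, 11.19, 11.24 and 11.54 with high-fat-fed grandfathers. That is a difference of 4.03 (SE 0.31, limma adjusted p = 8.65e-07). The 8 granddaughters of high-fat-fed males were therefore all above the 10 of chow-fed males. The interaction was 0.96 (adjusted p = 0.697). Inherited differences between the lineages that do not come from diet cannot be told apart from the diet of the founders in this design.

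Slow-fibre genes gave the largest differences downward of all named genes. All 5 genes past 1 log2 lower were slow-fibre genes: slow troponin C Tnnc1 (-1.27), slow troponin T Tnnt1 (-1.23), slow myosin heavy chain Myh7 (-1.22), the slow calcium pump Atp2a2 (-1.01) and slow troponin I Tnni1 (-1.0). None of them passed, since animals varied widely. Of 17 listed genes 16 were measured, 14 were lower and 2 higher. Their median difference was -0.62 beside -0.0017 over all genes, 6 of 16 had an unadjusted p under 0.05, all lower (4.41% of all genes), and 0 were called or without overlap.

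Myh7 was at 11.62, 10.99, 11.64, 10.90 and 11.06 in chow/chow animals and at 10.08, 11.15, 8.82 and 10.02 in high-fat/chow animals (difference -1.22, SE 0.42, limma adjusted p = 0.465). High-fat/chow replicate 2 lay within the chow/chow range and the other 3 below it. Atp2a2 showed the same pattern, with 11.66, 10.87, 11.61, 10.88 and 10.97 against 10.30, 11.09, 9.21 and 10.13. Tnnt1 did so as well, with 10.84, 10.10, 10.86, 9.90 and 10.28 against 9.25, 10.52, 7.90 and 9.0.

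Other members, named in full after their values were seen, differed by less. The slow tropomyosin Tpm3 differed by -0.76 (0.14 for another, dimmer probe set), the Z-disc protein Myoz2 by -0.73, the calcium store protein Casq2 by -0.65 and the slow myosin light chains Myl2 and Myl3 by -0.58 and -0.44. Ankrd2 differed by -0.40, Myh7b by -0.24 and myoglobin, Mb, by -0.076. The calcium pump regulators Pln and Sln differed by -0.013 and 0.031, and the Z-disc protein Csrp3 by 0.047.

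The score of an animal, the mean of the 16 genes after each was centred over all arrays, was 0.66, 0.050, 0.54, -0.098 and 0.18 in chow/chow and -0.60, 0.39, -0.67 and -0.45 in high-fat/chow animals. A low score was not particular to this group, since chow/high-fat replicate 2 and high-fat/high-fat replicate 4 were at -0.60 and -0.95. In high-fat-fed females the median of the list was 0.057. The median was -0.91 without high-fat/chow replicate 2 and -0.39 without replicate 1, and -0.65 without the 2 dimmest high-fat/chow arrays, replicates 1 and 2. Within well columns 5, 7 and 9 it was -0.12, -1.23 and -0.69.

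Of the fast-fibre genes, 11 of 14 measured were higher and 3 lower, with a small median of 0.013. They ran from the calcium buffer Pvalb (0.13, SE 0.069) to the fast oxidative myosin Myh2 (-0.23, SE 0.16). Pvalb was bright, at a mean of 12.29 in chow/chow animals, and whether such high levels limit a rise was not tested. Of 10 genes of cardiac or neighbouring muscle, 5 were measured, 4 of them lower, and their score ran from -0.044 to 0.21 in chow/chow and from -0.38 to -0.092 in high-fat/chow animals. Myh6, the cardiac myosin and a near copy of Myh7 whose probes may share signal, differed by -0.81, and Tbx15 by -0.24, with -0.12 for another probe set. Fewer slow fibres in the piece of muscle taken and less RNA of these genes per fibre cannot be told apart in whole muscle, and the part of dissection was not tested.

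**Figure D4:**
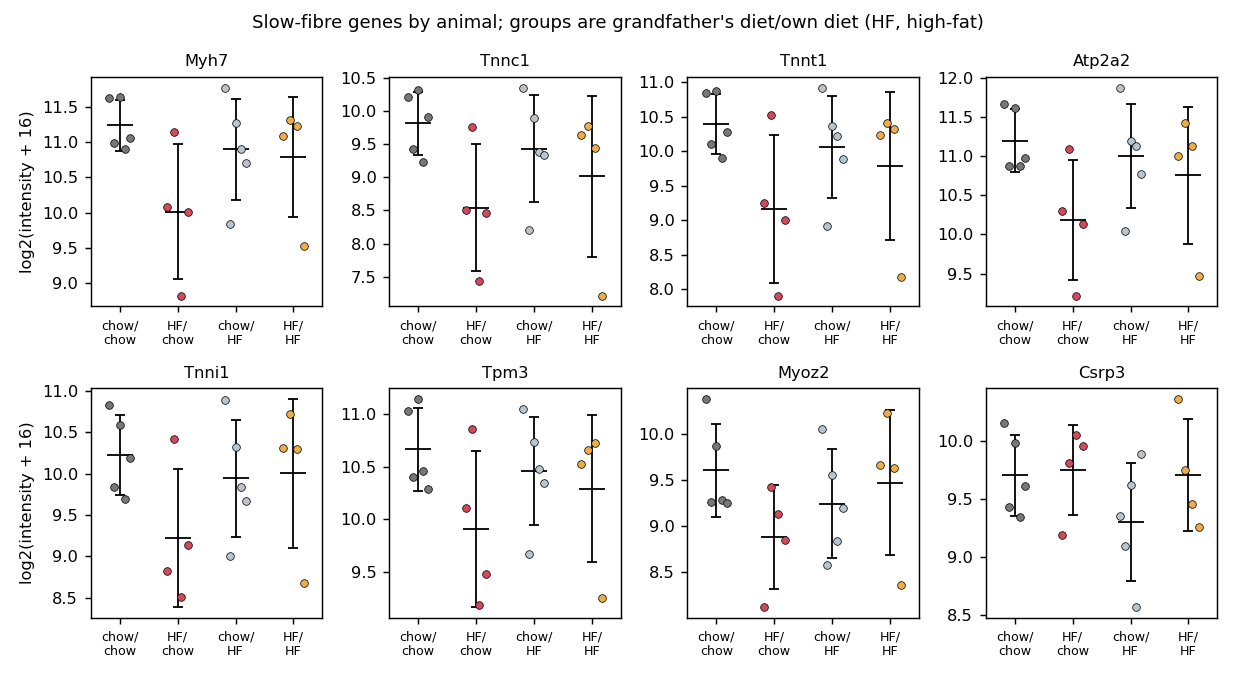
Level of 8 slow-fibre genes in each animal, as log2(intensity + 16), by group (grandfather's diet/own diet, HF for high-fat), with the mean and SD as bars. In 6 of them, Myh7 to Tpm3, high-fat/chow replicate 2 lies among the chow/chow animals and the other 3 at or below their lower edge, and single animals of both high-fat-fed groups are as low.

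The promoters of the 3 slow-fibre genes of smallest p are shown since their levels varied together from animal to animal. Each line gives the 120 bases before the RefSeq GRCr8 start, written along the gene, with E-boxes (CANNTG, bound by myogenic factors of the MyoD family) and TATA boxes (TATAAA) in capitals, searched on both strands. Myh7 lies at chr15:32438195-32438314 on the minus strand, Atp2a2 at chr12:39733399-39733518 and Tnnt1 at chr1:78348915-78349034, both on the plus strand.
Myh7: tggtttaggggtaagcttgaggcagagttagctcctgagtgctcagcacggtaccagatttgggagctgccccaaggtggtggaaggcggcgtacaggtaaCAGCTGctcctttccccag
Atp2a2: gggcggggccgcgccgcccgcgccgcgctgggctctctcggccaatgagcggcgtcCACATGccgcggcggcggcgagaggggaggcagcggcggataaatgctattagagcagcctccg
Tnnt1: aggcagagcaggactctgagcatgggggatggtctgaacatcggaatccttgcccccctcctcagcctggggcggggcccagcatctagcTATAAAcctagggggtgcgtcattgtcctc
Within 250 bases before the start, all 12 slow-fibre promoters found in the table (of 16 genes) held an E-box, as did 65.3% of all 27457 promoters. TATAAA was in 3 of 12 and 13.1% of all, and the MCAT element CATTCC, bound by TEAD factors, in 1 of 12 and 11.8% of all. A match describes letters and is not evidence of binding. Only 1 annotated start was used per gene, and whether muscle uses that start was not tested.

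Of the genes of fat handling more were lower than higher, by small amounts. Of 16 measured genes that fatty acids are known to induce, 14 were lower and 2 higher, with a median of -0.14. The lowest p were those of the thioesterases Acot1 (-0.31, SE 0.11) and Acot2 (-0.29, SE 0.14), then of the reductase Decr1 (-0.27) and the lipase Lpl (-0.32). Scores ran from -0.21 to 0.033 in chow/chow and from -0.42 to -0.19 in high-fat/chow animals, so they overlapped. Replicate 4 had the lowest score of the high-fat/chow animals, and without it the median was -0.077. In high-fat-fed females the median was 0.060.

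Fatty acid oxidation, which shares genes with that list, had 17 of 24 members lower with a median of -0.065. That median was -0.016 without high-fat/chow replicate 4 and -0.0995 without chow/chow replicate 4, and within well columns 5, 7 and 9 it was 0.034, -0.17 and -0.11, so its direction did not hold in the column with most animals. Etfa, which passes electrons from acyl-CoA dehydrogenases, differed by -0.22 (SE 0.079) and Acadl, the long-chain dehydrogenase, by -0.22 (SE 0.091). Of fatty acid uptake and lipid droplet genes, 17 of 22 were lower (median -0.093), among them Pnpla3 (-0.28), the droplet protein Plin4 (-0.19) and the lipase inhibitor G0s2 (-0.59, SE 0.31). At an unadjusted p under 0.05 there were 2, 3 and 2 members of these lists in that order, all lower (4.41% of all genes), and 0 were called.

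Peroxisomal genes were split, 12 higher and 12 lower, with the catalase gene Cat differing by -0.30 (SE 0.087). Lipid synthesis had 8 of 15 higher (median 0.025) and sterol synthesis 5 of 13 (median -0.034). A fixed panel of metabolic genes did not pass. Pdk4, an inhibitory kinase of pyruvate dehydrogenase, differed by -0.13 (SE 0.14), Angptl4, a lipase inhibitor that fasting and fat induce, by -0.39 (SE 0.41), and the desaturase Scd by 0.43 (SE 0.26). Ucp3 (-0.0062, SE 0.24), Cpt1b (-0.0015, SE 0.057), the glucose transporter Slc2a4 (-0.0034, SE 0.096), the ubiquitin ligase Fbxo32 (0.059, SE 0.10) and Adipoq (0.075, SE 0.27) lay near 0, with signs that changed with the setting.

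Mitochondrial energy genes lay close to the middle of all genes. The median was 0.011 over 31 subunits of complex I, -0.0019 over 41 subunits of complexes II to V and -0.043 over 18 genes of the tricarboxylic acid cycle (-0.018 without high-fat/chow replicate 4). Assembly factors of the chain had 20 of 32 higher (median 0.038), with 5 higher and 2 lower at an unadjusted p under 0.05 (4.34% and 4.41% of all genes). Their median was 0.0035 without high-fat/chow replicate 3 and 0.063 without replicate 1. Smim20, needed for early steps of complex IV, differed by 0.31 (SE 0.10) and Ndufaf3, a complex I factor, by 0.24, against -0.22 for the copper chaperone Cox17. Mitochondrial ribosomal proteins had 41 of 63 higher (median 0.048), from Mrps10 (0.35) to Mrps21 (-0.21), and a median of 0.096 without high-fat/chow replicate 1 and 0.027 without replicate 3. Smim20 passed without high-fat/chow replicate 1 (0.47, limma adjusted p = 0.00792).

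Genes that make and break down protein had medians within 0.1 log2 of 0. Cytosolic ribosomal proteins had 38 of 55 measured members higher, 9 of them and 0 lower ones at an unadjusted p under 0.05 (4.34% of all genes were so higher). Among them were Rpl29 (0.32, SE 0.091), Rpl32 (0.22), Rpl23a (0.14) and Rpsa (0.33), genes with many processed copies in the genome, and 7 other probe sets of Rpl29 differed by 0.22 to 0.43. The list's median was 0.049 and its scores overlapped (-0.088 to 0.028 and -0.023 to 0.14). The median was -0.036 in the unnormalized table, 0.00071 after centring each array on its median and 0.11 without high-fat/chow replicates 1 and 2, so its direction rests on the scaling. With 1 array left out it ran from 0.024 (chow/chow replicate 3) to 0.085 (high-fat/chow replicate 1). In high-fat-fed females it was -0.050.

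Proteasome subunits had 19 of 31 higher (median 0.042), such as Psmb1 (0.22, SE 0.068) and Psmb6 (0.21), with Psmc5 at -0.16. Their median was 0.0082 without high-fat/chow replicate 4, 0.080 without replicate 1 and 0.066 without replicate 2. Genes of atrophy and autophagy had 14 of 23 higher (median 0.035), with Atg12, which lengthens autophagosomes, at 0.18 and the lysosomal protease Ctsl at 0.26; the median was -0.0062 without chow/chow replicate 4 and -0.0075 without high-fat/chow replicate 1. Amino acid sensing upstream of mTORC1, a list made around Kptn after its value was known, had 16 of 23 higher (median 0.077, and 0.045 without high-fat/chow replicate 3). Its other members of smallest p were Nprl2, a subunit of the GATOR1 brake (0.21), Fnip2, a partner of folliculin (0.21), and Lamtor3, of the Ragulator anchor (0.13).

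The lists of glucose handling also had medians within 0.1 log2 of 0. Glycolysis had 14 of 19 higher (median 0.056, and 0.022 without high-fat/chow replicate 3), with Pgk1 at 0.16 and the regulator Pfkfb3 at 0.53 (SE 0.31). Glycogen metabolism was split, 8 and 8, with the phosphatase Epm2a, the laforin gene, at -0.28 (SE 0.089) and the kinase subunit Phkg1 at 0.28 (SE 0.090). Insulin signalling and glucose uptake had 20 of 28 lower (median -0.053, and -0.10 without high-fat/chow replicate 1), among them the kinases Pik3ca (-0.15) and Gsk3b (-0.16). Excitation-contraction coupling (median 0.039), myogenic genes (-0.0053), clock genes (0.0016), antioxidant enzymes (0.0012), imprinted genes (-0.0077) and chromatin modifiers (-0.019) held 0 called genes. The clock factor Hlf differed by 0.28, the thioredoxin reductase Txnrd1 by -0.22 and the DNA methyltransferase Dnmt1 by 0.14.

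Of stress and activity genes more were lower than higher. Heat shock chaperones had 19 of 24 lower (median -0.098), with Hsph1 at -0.27 (SE 0.083), Dnaja1 at -0.27 and the small chaperone Hspb3 at 0.30. Immediate early genes, which muscle activity and handling induce, had 19 of 26 lower (median -0.072, and -0.042 without chow/chow replicate 4), with Ccn1 at -0.82 (SE 0.30) and Egr1 at -0.93 (SE 0.41). Egr1 was at 9.54, 7.86, 8.88, 9.78 and 9.85 in chow/chow and at 7.41, 8.80, 8.43 and 8.39 in high-fat/chow animals, so chow/chow replicate 2 lay within the range of the other group. Both lists held 0 called genes.

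Markers of other cell types were measured as well, and 0 were called. Leukocyte genes had 18 of 27 higher (median 0.091), such as Cybb, of the phagocyte oxidase (0.34, SE 0.14), and the complement gene C1qb (0.22). Their scores ran from -0.16 to 0.17 in chow/chow and from 0.0078 to 0.20 in high-fat/chow animals. The median was 0.022 without chow/chow replicate 3, and -0.15 within well column 9. Fibroblast and matrix genes had 27 of 36 higher (median 0.063), led by the collagen cross-linking Loxl1 (0.34) and Timp2 (0.23), with scores from -0.15 to 0.23 and from -0.091 to 0.31. With 1 array left out the median ran from 0.014 (chow/chow replicate 3) to 0.16 (high-fat/chow replicate 1). Tendon genes had 8 of 13 higher, but their median of 0.092 ran from -0.010 without high-fat/chow replicate 2 to 0.18 without replicate 1. Red blood cell genes had 5 of 6 higher, with a median of 0.14 that ran from 0.027 without chow/chow replicate 3 to 0.32 without high-fat/chow replicate 3.

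The remaining cell types lay nearer the middle. Fat-cell genes had 8 of 14 higher (median 0.022), endothelial genes 9 of 18 (-0.0050), vessel wall genes 5 of 12 (-0.047) and nerve genes 4 of 11 (-0.029). Abcc9, a potassium channel subunit of vessel walls, differed by -0.36 (SE 0.11), with -0.040 for another probe set, and the myelin gene Mbp by -0.33, with 0.019 for another. The endothelial sialomucin Emcn differed by 0.28. The part of such cells in the muscle-wide differences was not tested.

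**Figure D5:**
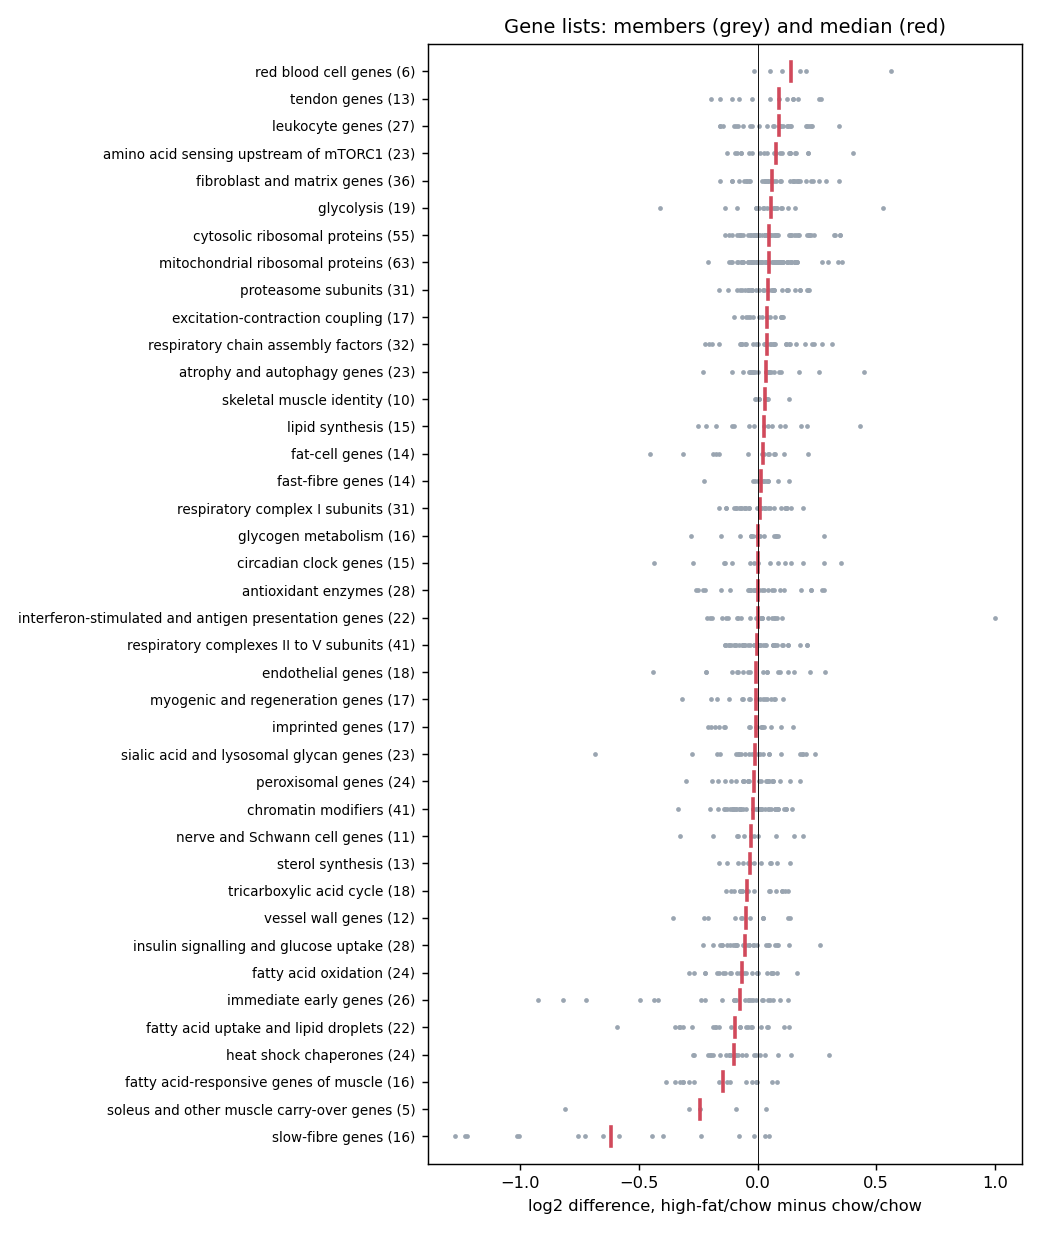
Log2 difference between high-fat/chow and chow/chow of each measured member (grey points) and the median (red bar) of the 40 gene lists, with the number of measured members in parentheses. The slow-fibre list has its median at -0.62, and the other medians lie between -0.24 and 0.14.

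Interferon-stimulated genes were split, 11 and 11, with a median of 0.0011, but 1 of them stood apart. Ifit1, an antiviral protein that binds foreign RNA, was at 5.80, 4.90, 5.93, 4.80 and 4.97 in chow/chow and at 6.17, 6.55, 6.03 and 6.37 in high-fat/chow animals. The groups did not overlap, and the difference of 1.0 (SE 0.26, limma adjusted p = 0.376) did not pass. Within well columns 5, 7 and 9 it was 1.12, 0.24 and 1.40. Its relative Ifit2 differed by -0.19 and Oasl by -0.20. Ifit1 was dim, with a chow/chow mean of 5.28, the level of the filter on low values. In high-fat-fed females its groups overlapped, at 4.90 to 6.08 with chow-fed and 5.56 to 6.35 with high-fat-fed grandfathers.

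The 3 largest differences upward by size, chosen after their values were seen, belonged to dim or variable probe sets. Adgrb2, an adhesion receptor of the brain, was at 5.85, 4.73, 4.47, 4.73 and 5.33 in chow/chow and at 6.32, 6.10, 6.12 and 8.0 in high-fat/chow animals (1.61, SE 0.43). Cyp2j4, a cytochrome P450 that acts on arachidonic acid and has close relatives, was at 6.17, 7.13, 7.05, 7.52 and 8.49 against 9.03, 7.97, 8.79 and 9.20 (1.48, SE 0.40). The palmitoyltransferase Zdhhc4 was at 8.01, 7.72, 9.29, 9.43 and 7.86 against 9.81, 9.88, 9.38 and 10.03 (1.31, SE 0.38). The groups overlapped for Cyp2j4 and Zdhhc4, and none of the 3 passed.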

How the data were processed

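Total RNA of the EDL (200 ng per array, per the labels) of 18 females was hybridized to Affymetrix arrays. The deposited values are intensities on a linear scale, made by the authors with Affymetrix Expression Console and PLIER per the submitters' processing notes, versions not given in the sources used here. From them log2(intensity + 16) was computed and quantile-normalized, since array medians differed by 0.341 log2. Of 20917 probe sets, 18197 had 1 symbol in the probe table, 960 several and 1760 none. The brightest probe set of each gene was kept if its mean passed the 25th percentile (5.28), which left 12642 genes. limma 3.58.1 (R 4.3.3) fitted the means of the 4 groups over 18 arrays (14 residual degrees of freedom) with two-sided moderated tests, adjusted by Benjamini-Hochberg over all genes at 0.05. The fit was tested on simulated data.

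Genes are named by rule: the 12 higher and 12 lower genes of smallest p, the 5 of smallest p for the interaction, up to 4 members of smallest p per list (all for muscle identity), a panel of 9, and further genes where the text says so. The members and lists were chosen with earlier results of these data known. Lists are described by counts and medians, without a test. Promoters come from RefSeq (GRCr8). Where a symbol had more than 1 window, the window of lowest coordinate was kept, which on the minus strand is the start farthest downstream. Between arrays of 1 group, over 16 pairs, the SD of the log2 difference was at least 0.187, so none was a copy. Replicate numbers follow accession order. Alternatives were the table as deposited, centring on medians, offsets of 1 and 64, other filters, all probe sets, other eBayes settings, array weights, covariates and blocks, the 9 arrays alone and each array left out.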

Additional observations from a re-analysis of the deposited data

Results flagged for a closer look

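Probe set 10747775, which has no symbol in the probe table and lay outside the genes compared, differed by 3.07 log2 between high-fat/chow and chow/chow. The difference was 2.81 to 3.51 with any 1 array left out (limma adjusted p at most 0.00102), 3.0 in the unnormalized table, 3.03 after centring each array on its median, and 3.19 and 2.74 with offsets of 1 and 64. Within well columns 5, 7 and 9 it was 3.53, 1.57 and 3.67. Another probe set without a symbol, 10705870, differed by 0.60 in chow-fed females (limma adjusted p = 0.372). In high-fat-fed females it differed by 1.07 (limma adjusted p = 0.000751). It was dim, at means of 4.99 in chow/chow, 4.87 in chow/high-fat, 5.59 in high-fat/chow and 5.94 in high-fat/high-fat animals. Both means with chow-fed grandfathers lay below the level of the filter on low values, where a log2 unit is not a doubling.

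Single animals stood far from their group in 2 of 102 pairs of a gene and a group, where chance gives about 1 in 20. Angptl4 was at 6.45 in high-fat/chow replicate 4, while the other 3 animals lay between 6.93 and 7.02. Adgrb2 was at 8.0 in the same animal, while the others lay between 6.10 and 6.32.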

How the results depend on the processing

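The count of genes called was 0 as deposited, with an offset of 1 or 64, with all probe sets, with the array median as a covariate, with the well column as a block and, chosen after seeing the data, without the 2 dimmest high-fat/chow arrays (Slc17a5 adjusted p = 0.105, 0.0777, 0.0540, 0.0529, 0.0624, 0.0516 and 0.151). It was 2 with only the 9 chow-fed arrays, Slc17a5 and Pura, and 0 to 2 with 1 array left out, 2 being reached without high-fat/chow replicate 1. Over 32 settings Slc17a5 passed in 12 and missed in 20 (adjusted p 0.00676 to 0.326). For the interaction 1 gene, Sntb1, passed as deposited (1.31, adjusted p = 0.0364), where the median of all genes shifts by 0.24, and 0 in the other 30 settings. The 24 leading genes kept their sign in all 762 values under alternatives, which follows largely from picking them by p in the same arrays. Of 1280 list medians, 46 moved by over 1 SD.

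Panel genes near 0 changed sign. With 1 array left out, Fbxo32 ran from -0.021 to 0.11, Cpt1b from -0.015 to 0.021, Slc2a4 from -0.045 to 0.027, Ucp3 from -0.19 to 0.11 and Adipoq from -0.083 to 0.20. Fbxo32 was -0.020 as deposited and -0.0015 without the 2 dimmest arrays. Cpt1b was 0.0055 with array weights, 0.0049 with the median covariate and 0.031 without the 2 dimmest arrays. Slc2a4 was 0.014 with the median covariate and 0.0051 with neighbouring animals as a random block. No paired analysis was possible because no animal number is shared between chow/chow and high-fat/chow, and replicate numbers give only the accession order. Neighbouring animal numbers link the own diets within a lineage. Used as a random block (correlation 0.126), they left Slc17a5 at a limma adjusted p of 0.0347.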
